A study of Mus musculus with 6 samples.

Results

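The genes described here are the enzymes that add methyl groups to histone lysines or remove them. They were taken by symbol from a list of 41 genes, 28 on the methyltransferase side and 13 demethylases, and all 41 were found among the 24421 genes of the count files. RNA came from 3 STIM1 knockout (KO) and 3 wild type (WT) samples of cerebellum from mice aged 1 year, described by the submitters as biological replicates. The tissue was cut out by microdissection and holds Purkinje cell bodies and the overlying molecular layer, so it is a mixture of cell types. STIM1 is the calcium sensor of the endoplasmic reticulum that opens Orai channels when the store empties. The labels name the genotype only as STIM1 Knockout or Wild type: they give neither the exons removed nor the cells or promoter that limit the deletion, and no strain or sex.

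Methyl marks on histone H3 are read by position. H3K4 methylation marks promoters and enhancers, H3K36 methylation lies over transcribed gene bodies, H3K79 methylation also goes with transcription, and H3K9 and H3K27 methylation go with silencing. Writers of the SET-domain family, and the unrelated enzyme Dot1l, place the marks. Erasers remove them by an oxidase (Kdm1a and Kdm1b) or a JmjC-domain dioxygenase mechanism (the other Kdm genes and Jmjd1c). In human, loss of 1 copy of several of them, such as KMT2A, KMT2D, NSD1, EHMT1 and SETD5, causes a neurodevelopmental syndrome.

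The 6 libraries held 645994 to 764839 gene counts, 1.16% to 1.23% of the uniquely aligned reads, and reads in no gene were 98.8% of the same total throughout. Stim1 had 4, 3 and 2 counts in KO replicates 1 to 3, against 7, 21 and 3 counts in WT replicates 1 to 3, too few to check the genotype. KO replicate 3 held 14 and WT replicate 3 held 28 counts of 4 Y-linked genes, and the other libraries 0. The strand used in counting is not given in the sources used here. Tsix, transcribed opposite to Xist, held 2987 to 3265 counts in the libraries without Y-linked counts, where Xist, the RNA that coats the inactive X, held 79 to 139. In KO replicate 3 and WT replicate 3, which held Y-linked counts, Tsix had 1 and 2 counts and Xist had 4 and 10. Whether reads were counted on the strand opposite to each gene was not tested. Reads of a gene and of RNA from its other strand can therefore not be told apart. Each value below may be RNA of the other strand in part or in whole. Purkinje cell markers summed to 2281 to 3165 CPM (counts scaled to library size with TMM factors) in KO, against 3240 to 3879 CPM in WT, and astrocyte and Bergmann glia markers to 872 to 1233 CPM in KO, against 1273 to 1537 CPM in WT. Neither pair of ranges overlapped, and 0 of the 12 and 11 genes of these lists were at 0 in all libraries. The Purkinje separation rested on Itpr1, the calcium release channel gene: without it the sum was 1156 to 1840 CPM in KO and 1623 to 1954 CPM in WT, which overlap, and singly 3 of the 12 genes were lower and 1, Pcp2, higher in KO without overlap. Without Slc1a3, its most abundant gene, the astrocyte and Bergmann glia sum was 629.7 to 899 CPM in KO and 946 to 1185 CPM in WT. Singly 1 of the 11 genes, S100b, was lower in KO without overlap, and 0 were higher. S100b lay at 180 CPM in KO replicate 3 and 235 CPM in WT replicate 3. That gap is wider than the gap between the summed ranges, so the lack of overlap of the glial sums rested on S100b. Most other genes of both lists were lower in KO as well. Of the tested genes, 8 of 10 Purkinje and 9 of 11 glial markers had negative log2 fold changes (KO over WT), with medians of -0.33 and -0.38. In each list 3 genes had an unadjusted p under 0.05 (edgeR quasi-likelihood test), and 0 passed after adjustment. Granule cell markers (410 to 497 CPM in KO, 393 to 506 CPM in WT), interneuron markers (376 to 450 CPM in KO, 382 to 426 CPM in WT) and oligodendrocyte markers (94.2 to 144 CPM in KO, 109 to 132 CPM in WT) overlapped. Microglial markers summed to 1.59 to 21.5 CPM in KO and 11.3 to 50.7 CPM in WT, and endothelial markers to 7.48 to 27.8 CPM in KO and 11.3 to 22.4 CPM in WT. In bulk tissue fewer cells of a type and less RNA per cell cannot be told apart, and the part of these shifts in the values below was not tested.

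No histone lysine enzyme passed the comparison of KO with WT. Of the 41 genes 24 had enough counts to be tested, 17 writers and 7 erasers, and 0 passed edgeR's quasi-likelihood test at a Benjamini-Hochberg adjusted p under 0.05 over all 5320 genes tested, where 0% of all genes passed. At an unadjusted p under 0.05 there were 0 of the 24, where 4.62% of all genes tested lay below that level (1.58% higher and 3.05% lower in KO), and DESeq2, limma-voom and the edgeR exact test called 0 of them as well. The KO and WT libraries did not overlap in CPM for 2 of the 24, Setd7 on the lower side (5.85% of all genes tested) and Kdm1b on the higher side (4.83%). Among the 17 untested genes this held for Setd6 alone, on the lower side, as it did for 4.17% of all untested genes with a count (7.66% in either direction). Positive and negative log2 fold changes (KO over WT) were 12 each. Their median was 0.015, beside 0.0019 over all genes tested, with a median of 0.038 for writers and -0.0074 for erasers.

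The 95% intervals of the log2 fold change were 0.524 to 1.902 wide, and all 24 held 0. For 16 genes the interval lay within a 2-fold change in either direction, and for the other 8 it reached beyond, so that a change of that size lay within the error there. The median standard error was 0.33, beside 0.28 over all genes tested.

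**Figure D1:**
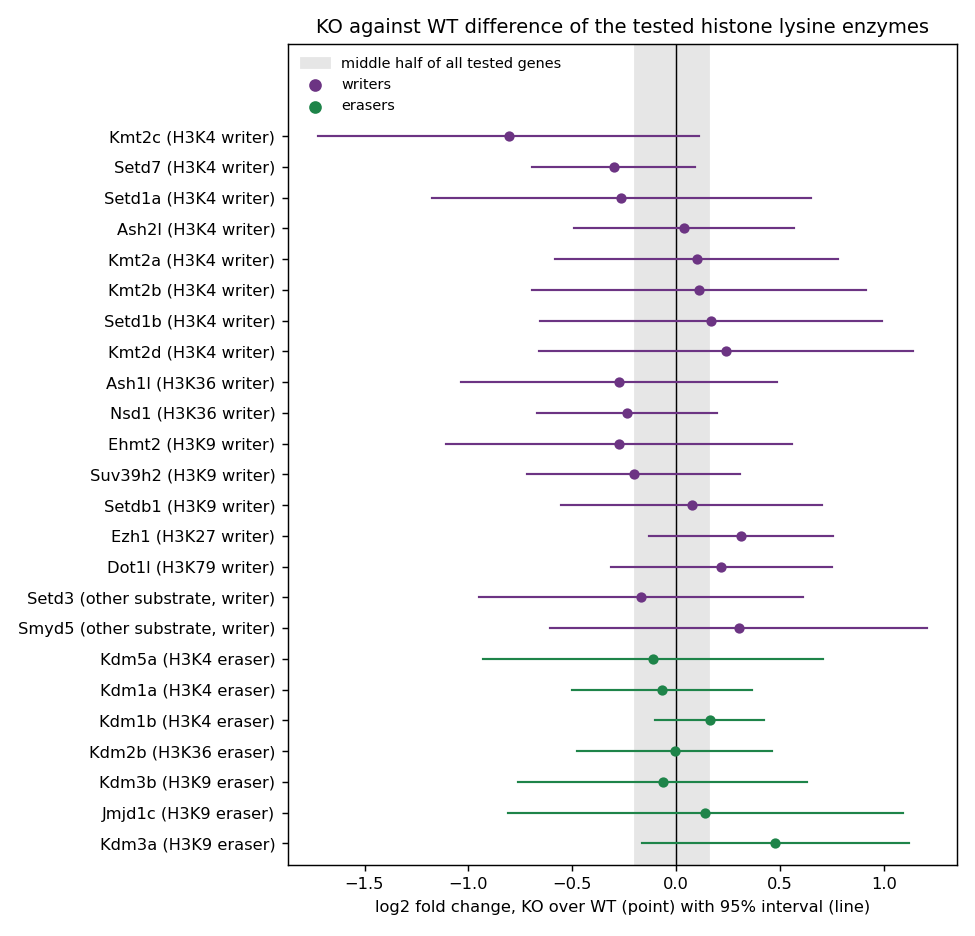
Log2 fold change (KO over WT) of the 24 tested genes on the horizontal axis, with the 95% interval of edgeR's quasi-likelihood fit as a line, grouped down the page by target lysine (purple, writers; green, erasers); the grey band holds the central part of all tested genes, from -0.20 to 0.16. Every line crosses 0, Kmt2c lies farthest to the left at -0.81 and Kdm3a farthest to the right at 0.48.

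The promoters of the 3 genes whose KO and WT libraries did not overlap are printed because CpG sites are what the CxxC domains of several enzymes of the set (Kmt2a, Kmt2b, Kdm2a and Kdm2b) bind. The sequences are RefSeq's on GRCm38.p6, 5′ to 3′ on the gene's strand, from 250 to 71 bases before the start in RefSeq, with each CG in capitals. For Setd6 and Setd7 that start differs from the GENCODE gene bounds given with their values. They lie at chr8:95715663-95715842 (plus) for Setd6, chr3:51560894-51561073 (minus) for Setd7 and chr13:47043249-47043428 (plus) for Kdm1b.
Setd6: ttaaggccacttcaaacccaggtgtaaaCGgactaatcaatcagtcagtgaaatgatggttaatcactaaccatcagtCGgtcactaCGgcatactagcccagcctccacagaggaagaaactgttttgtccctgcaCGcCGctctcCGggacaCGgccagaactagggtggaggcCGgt
Setd7: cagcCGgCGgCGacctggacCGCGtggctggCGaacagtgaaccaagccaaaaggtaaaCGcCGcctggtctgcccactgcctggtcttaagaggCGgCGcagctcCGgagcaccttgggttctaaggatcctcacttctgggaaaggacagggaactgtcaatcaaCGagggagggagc
Kdm1b: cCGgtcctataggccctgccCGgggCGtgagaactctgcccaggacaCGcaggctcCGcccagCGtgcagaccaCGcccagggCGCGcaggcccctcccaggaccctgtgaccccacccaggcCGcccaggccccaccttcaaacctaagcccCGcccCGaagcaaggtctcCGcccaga
The search was for CG, which reads the same on both strands. Setd6 holds 8 such sites, Setd7 12 and Kdm1b 13, where 32851 promoter windows of this length had a median of 4. As many or more sites are held by 31.04% of all windows for Setd6, 20.4% for Setd7 and 18.01% for Kdm1b. Since 29 of the 41 genes are in the promoter table, too few for a comparison of the whole set, none was made.

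Most of these genes were read at low level. The remaining 17 genes were below the filter, with mean counts of at most 9.17 per library, and 4 of the 41 had no count in at least 1 library. The lowest tested gene, Setd1a, had a mean count of 8.67, so the filter cut through a crowded range: Kdm2a (9.17) and Setd2 (8.5) lay just outside it. Several genes passed mainly through 1 genotype: Kmt2c, Kmt2d, Setd1a, Ehmt2, Kdm5a and Jmjd1c reached the filter level of 14.8 CPM in 1 KO and 2 WT libraries, and Setd3 in 1 KO and 3 WT libraries. On a scale per length, in CPM per kilobase of exon, tested genes of the set had a median of 2.98 and untested ones 0.75, beside 9.18 for 5130 tested genes of all kinds. Their exons are long, with a median of 8116 bases in the 41 genes and 4743 in the tested genes of all kinds.

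In the order of levels per length, 1 gene stood apart. Kdm1b had 289 CPM per kilobase, with libraries from 247 to 319, which is 20.3 times the next gene and rank 198 of 23376 genes. Neither the library's strandedness nor the counted strand is stated. How much of this level is RNA of Kdm1b and how much is RNA from the other strand, where Dek lies, cannot be told apart. The Kdm1b counts may come from the strand of Dek in whole, which was not tested. This rank, and the share of counts below, are therefore not measured levels of Kdm1b RNA. After it came Kdm1a at 14.3 (12.8 to 16.4), Suv39h2 at 13.5 (10.5 to 16.9), Ezh1 at 10.002 (7.77 to 12.4), Setd7 at 9.34 (7.94 to 10.9) and Dot1l at 8.77 CPM per kilobase (6.40 to 13.5). From Kdm1a downward the library ranges of neighbours in this order overlapped. Kdm2b (6.95), Ash2l (6.19) and Nsd1 (5.45) followed, and the others lay lower. In total the 41 genes took 0.245% to 0.297% of gene counts in KO and 0.249% to 0.262% in WT, and Kdm1b alone took 60.8% to 65.4% of those in KO and 55.5% to 61.8% in WT.

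**Figure D2:**
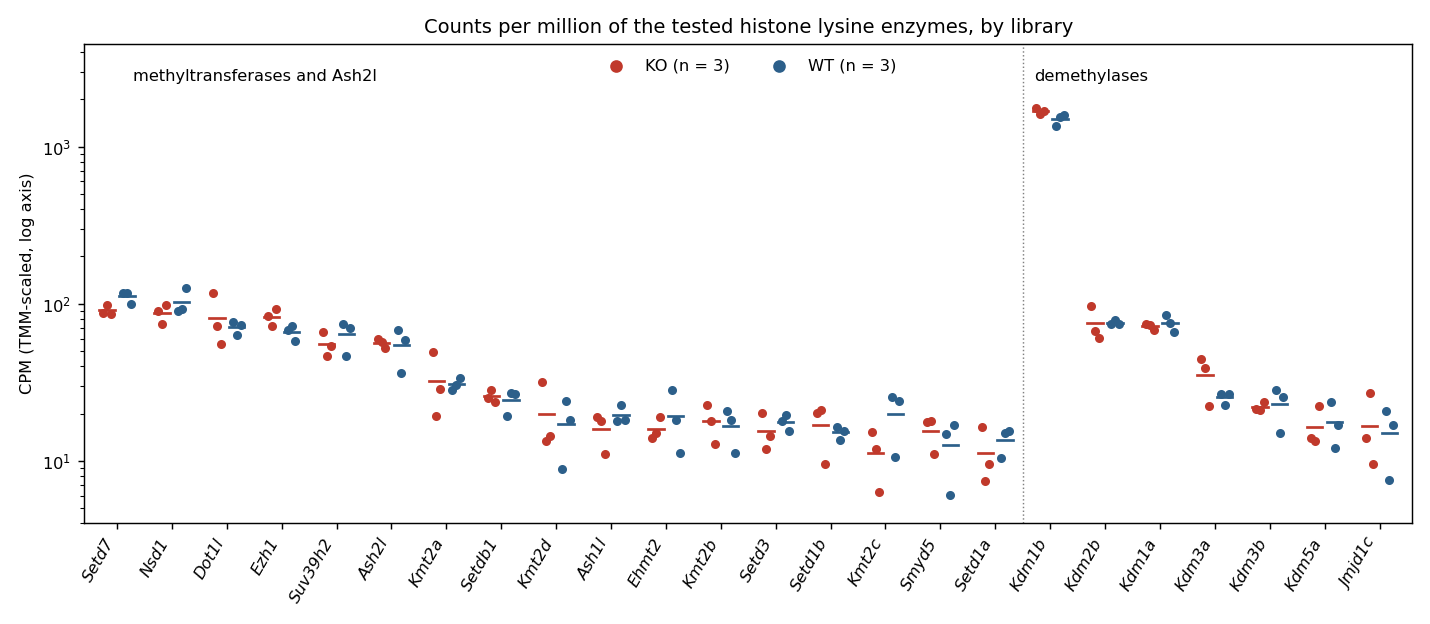
CPM on a log axis for each tested gene, writers to the left of the dotted line and erasers to the right, each ordered by mean level; points are libraries and short lines are means of KO (red, n = 3) and WT (blue, n = 3). Kdm1b lies at 1358 CPM or higher in every library, the other genes lie between 6.05 and 127 CPM, and for most genes the red and blue points mix.

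H3K4 writers were the largest group, and all 8 genes were tested. Kmt2c (chromosome 5, 25271798 to 25498783, minus strand, GRCm38), which places H3K4 monomethylation at enhancers, had 12, 8 and 4 counts in KO replicates 1 to 3, against 17, 7 and 17 counts in WT replicates 1 to 3. WT replicates 1 and 3 lay above the rest, while WT replicate 2 fell among the KO libraries. Its mean was 11.2 ± 4.47 CPM in KO and 19.96 ± 8.15 CPM in WT (SD, n = 3 each), and the log2 fold change was -0.81 (SE 0.44, 95% interval -1.72 to 0.11, edgeR adjusted p 0.987), the lowest unadjusted p of the set at 0.082. Without WT replicate 2 the log2 fold change was -1.10 with an unadjusted p of 0.0246 and an adjusted p of 0.988 (edgeR fit across all genes), and without both replicate 3 libraries, which hold the Y-linked counts, it was -0.40. Kmt2d, its closest relative, had 25, 9 and 9 counts in KO, against 6, 16 and 13 counts in WT, with a log2 fold change of 0.24 (SE 0.43). The difference between the log2 fold changes of these relatives was not tested.

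Setd7 (chromosome 3, 51515319 to 51560879, minus strand) is a monomethyltransferase of H3K4 and of many other proteins. It had 69, 66 and 54 counts in KO, against 78, 78 and 71 counts in WT, or 87.3, 98.7 and 85.9 CPM in KO and 116, 118 and 100.1 CPM in WT. All KO libraries were lower than all WT libraries, and the nearest pair was 98.7 CPM in KO replicate 2 and 100.1 CPM in WT replicate 3. The mean was 90.7 ± 7.02 CPM in KO and 111 ± 9.85 CPM in WT (SD, n = 3 each), and the log2 fold change of -0.30 (SE 0.19, 95% interval -0.69 to 0.089) did not pass (edgeR adjusted p 0.987). Leaving out each library it stayed between -0.38 and -0.26. The summed astrocyte and Bergmann glia markers were also lower in KO without overlap. That lack of overlap rested on S100b, though 9 of the 11 genes had negative log2 fold changes. The part of these markers in the Setd7 values was not tested.

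The promoter writers of the same group had values on both sides of 0. Kmt2a, the founding MLL enzyme, had 39, 13 and 18 counts in KO, against 19, 20 and 24 counts in WT, with a log2 fold change of 0.10 (SE 0.32) that turned to -0.37 without KO replicate 1. KO replicate 1 alone lay above every WT library. Kmt2b, its paralog, had 18, 12 and 8 counts in KO, against 14, 12 and 8 in WT (0.11, SE 0.38). Setd1b, of the SET1 complexes that place most H3K4 trimethylation, had 16, 14 and 6 counts in KO, against 11, 9 and 11 in WT (0.17, SE 0.39). Setd1a had 13, 5 and 6 counts in KO, against 7, 10 and 11 in WT (-0.26, SE 0.43), and shares 3523 bases of exon with a predicted gene on its own strand, so its counts are uncertain. Ash2l, a core subunit that these complexes need and no enzyme itself, had 47, 38 and 33 counts in KO, against 46, 24 and 42 in WT (0.038, SE 0.25). The median of the 8 log2 fold changes was 0.069, with 5 positive and 3 negative.

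Of 5 H3K36 writers 2 were tested. Nsd1 (chromosome 13, 55209782 to 55318325, plus strand), which places H3K36 dimethylation and whose human counterpart is the Sotos syndrome gene, had 71, 50 and 62 counts in KO, against 60, 61 and 90 counts in WT. Its mean was 87.8 ± 12.1 CPM in KO and 103 ± 20.9 CPM in WT (SD, n = 3 each), and WT replicate 3, at 127 CPM, was the high library. The log2 fold change was -0.24 (SE 0.21, 95% interval -0.67 to 0.20, edgeR adjusted p 0.987), and -0.062 without that library. Ash1l, a dimethyltransferase of H3K36 that keeps Hox genes active, had 15, 12 and 7 counts in KO, against 12, 15 and 13 in WT (-0.27, SE 0.36). Setd2, the writer of H3K36 trimethylation that travels with elongating RNA polymerase II, lay below the filter with 11, 15 and 3 counts in KO, against 10, 8 and 4 in WT. Smyd2 (0 to 3 counts in KO, 1 to 2 in WT) and Setmar, a SET domain fused to a transposase in primates but not in mouse (0 to 2 counts in KO, 0 to 1 in WT), were at the limit of detection.

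Among 7 H3K9 writers, 3 were tested. Suv39h2, a writer of H3K9 trimethylation in constitutive heterochromatin known in mouse mainly from testis, was read at 52, 31 and 34 counts in KO, against 50, 31 and 50 counts in WT (log2 fold change -0.20, SE 0.24). Its widely expressed paralog Suv39h1 had 0, 0 and 2 counts in KO, against 2, 0 and 1 in WT. Dclre1c, a DNA repair nuclease gene on the other strand, shares 357 bases of exon with Suv39h2. Setdb1, the writer that the KAP1 repressor Trim28 recruits to retroviral elements, had 20, 19 and 15 counts in KO, against 13, 18 and 19 in WT (0.075, SE 0.30). Ehmt2, which encodes the euchromatic H3K9 dimethyltransferase G9a, had 11, 10 and 12 counts in KO, against 19, 12 and 8 in WT (-0.27, SE 0.40), while its partner Ehmt1 had 4, 2 and 2 counts in KO, against 6, 1 and 2 in WT. Prdm2 had 12, 9 and 7 counts in KO, against 4, 9 and 6 in WT, below the filter, and Setdb2 had 1 count in all, in KO replicate 2.

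The Polycomb writers differed in counts, which may be RNA of the other strand in part or in whole. Ezh1 (chromosome 11, 101191115 to 101226463, minus strand), the form of the H3K27 methyltransferase that predominates in postmitotic cells, had 66, 48 and 58 counts in KO, against 46, 48 and 41 counts in WT. In CPM this was 83.5, 71.8 and 92.3 in KO, against 68.6, 72.6 and 57.8 in WT, and the groups overlapped only through KO replicate 2 and WT replicate 2. The mean was 82.5 ± 10.3 CPM in KO and 66.3 ± 7.64 CPM in WT (SD, n = 3 each), with a log2 fold change of 0.31 (SE 0.21, 95% interval -0.13 to 0.75, edgeR adjusted p 0.987). Without both replicate 3 libraries it was 0.13. Ezh2, the form of dividing cells, had 8, 2 and 4 counts in KO, against 3, 7 and 3 in WT, so that per kilobase of exon Ezh1 stood at 10.002 CPM and Ezh2 at 0.97 CPM over the 6 libraries.

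Dot1l, the only known H3K79 methyltransferase, had 93, 48 and 35 counts in KO, against 51, 42 and 52 counts in WT. KO replicates 1 and 3 were the highest and the lowest of the 6 in CPM (118 and 55.7), so the KO spread enclosed all WT libraries. Its log2 fold change was 0.22 (SE 0.25) and turned to -0.16 without KO replicate 1.

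Of 5 writers with other or disputed substrates 2 were tested. Setd3, which methylates actin on a histidine rather than histone lysine, had 16, 8 and 9 counts in KO, against 12, 13 and 11 in WT (-0.17, SE 0.37). Smyd5 had 14, 12 and 7 counts in KO, against 10, 4 and 12 in WT (0.30, SE 0.43). Setd5 (5 to 11 counts in KO, 5 to 13 in WT) and Smyd3 (2 to 4 counts in KO, 1 to 3 in WT) lay below the filter.

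Setd6, a monomethyltransferase of the NF-kappaB subunit RelA and of the histone variant H2AZ, was the 1 untested gene whose groups did not overlap. Setd6 (chromosome 8, 95715881 to 95719010, plus strand) had 3, 4 and 2 counts in KO, against 10, 5 and 10 counts in WT. That was 4.32 ± 1.47 CPM in KO and 12.2 ± 4.03 CPM in WT (SD, n = 3 each), a log2 ratio of the means of -1.50 that ranged from -1.80 to -1.32 leaving out each library. With no filter on low counts edgeR's quasi-likelihood test gave Setd6 an unadjusted p of 0.0143 and an adjusted p of 0.904, and the DESeq2 Wald test an unadjusted p of 0.0802. No annotated exon of another gene on the other strand overlaps it, which does not show that its counts come from its own strand.

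Among the erasers the H3K4 demethylases hold the gene with the most counts. Kdm1b (chromosome 13, 47043499 to 47085279, plus strand), the flavin-dependent demethylase known in mouse for setting DNA methylation imprints in oocytes, had 1383, 1075 and 1055 counts in KO, against 911, 1018 and 1131 counts in WT. In CPM these were 1751, 1608 and 1678 in KO, against 1358, 1539 and 1594 in WT. Every KO library lay above every WT library, though KO replicate 2 and WT replicate 3 were 1608 and 1594 CPM. The means were 1679 ± 71.4 CPM in KO and 1497 ± 124 CPM in WT (SD, n = 3 each), and the log2 fold change of 0.16 (SE 0.12, 95% interval -0.10 to 0.42, edgeR adjusted p 0.987) did not pass. That interval was the narrowest of the 24.

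Kdm1a, the LSD1 demethylase of the CoREST complex, had far fewer counts than its paralog Kdm1b, whose counts may come from the strand of Dek. Kdm1a had 59, 49 and 43 counts in KO, against 57, 50 and 47 counts in WT, with a log2 fold change of -0.069 (SE 0.21, 95% interval -0.50 to 0.36). Kdm5a, a JmjC demethylase of trimethylated H3K4, had 11, 9 and 14 counts in KO, against 16, 8 and 12 in WT (-0.11, SE 0.39), and its paralog Kdm5b 3, 2 and 1 counts in KO, against 3, 2 and 1 in WT.

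The JmjC erasers of other lysines were represented mainly by Kdm2b and Kdm3a. Kdm3a (chromosome 6, 71588972 to 71632990, minus strand), an H3K9 demethylase induced by hypoxia and needed in spermatogenesis, had 35, 26 and 14 counts in KO, against 18, 15 and 19 counts in WT. KO replicates 1 and 2, at 44.3 and 38.9 CPM, lay above all WT libraries, and KO replicate 3, at 22.3 CPM, lay below them. The mean was 35.2 ± 11.5 CPM in KO and 25.4 ± 2.38 CPM in WT (SD, n = 3 each), and the log2 fold change was 0.48 (SE 0.31, 95% interval -0.16 to 1.12, edgeR adjusted p 0.987). Leaving out single libraries moved it from 0.26 without KO replicate 1 (unadjusted p 0.462) to 0.70 without KO replicate 3 (unadjusted p 0.0302, adjusted p 0.968, edgeR fit across all genes).

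Its relatives had smaller fold changes with errors as wide. Kdm3b had 17, 14 and 15 counts in KO, against 19, 10 and 18 in WT (-0.064, SE 0.33). It shares 3468 bases of exon with Gm26538 on the other strand, so its counts are uncertain. Jmjd1c had 11, 18 and 6 counts in KO, against 14, 5 and 12 in WT (0.14, SE 0.45). Kdm2b, a CxxC protein that brings a variant Polycomb complex to CpG islands, had 77, 45 and 38 counts in KO, against 50, 52 and 53 counts in WT (-0.0074, SE 0.22), so that the WT libraries were close together and KO replicate 1 stood above them. Kdm2a had 10, 10 and 4 counts in KO, against 8, 14 and 9 in WT, below the filter.

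Below the filter were also all 3 H3K9 and H3K36 demethylases of the Kdm4 family. Kdm4a had 3, 3 and 5 counts in KO, against 12, 6 and 5 in WT, Kdm4b 1 to 3 in KO and 2 to 3 in WT, and Kdm4c 3 in each KO library and 2 to 4 in WT. Summed over the 3 genes the levels were 10.5 to 14.3 CPM in KO, against 15.1 to 26.8 CPM in WT, and did not overlap, with WT replicate 1 the high library through Kdm4a. Singly each of the 3 genes overlapped. Among the sums by target and role, only the H3K4 erasers also did not overlap. They lay on the higher side, at 1698 to 1843 CPM in KO and 1471 to 1679 CPM in WT. Without Kdm1b they overlapped, at 89.7 to 92.4 CPM in KO and 84.6 to 113 CPM in WT. Such sums were not made over all genes, so only a share for single genes is given. Of all untested genes with a count, 4.17% lay singly lower in KO without overlap. Kdm6b, the inducible H3K27 demethylase, had 7, 3 and 3 counts in KO, against 3, 3 and 6 in WT.

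Exon overlap of 50 bases or more with a gene transcribed the other way was found for 14 of the 41 genes, 10 of them tested. For 7 of the 14 such a neighbour is itself among the counted genes. The widest overlap, 3468 bases of exon, lies between Kdm3b and Gm26538, which is not among them. The same holds for Gm37422, which shares 814 bases with Smyd2, and Gm14820, which shares 767 bases with Suv39h1. Kdm1b and Dek, a chromatin protein gene, converge on chromosome 13 and share 505 bases of exon. Dek (47084775 to 47106201, minus strand) had 50, 42 and 37 counts in KO, against 52, 51 and 55 counts in WT. Kdm1b thus held 25.6 to 28.5 times the counts of Dek in KO, against 17.5 to 20.6 times in WT. Dek itself lay at 58.9 to 63.3 CPM in KO, below the 77.1 to 77.5 CPM of WT, with a log2 fold change of -0.33 (SE 0.20, edgeR adjusted p 0.987). Such a separation on the lower side was seen for 5.85% of all genes tested.

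The other pairs were closer in counts or low on the partner's side. Dclre1c held 53 to 70 counts in KO and 52 to 61 in WT, more than Suv39h2 in each library. Ccdc77 had 18 to 23 counts in KO and 15 to 26 in WT, 1.79 times the mean count of Kdm5a, while Cers2, a ceramide synthase gene, had 1.26 times that of Setdb1 and Dap3, a mitochondrial ribosome gene, 0.311 times that of Ash1l. Against Kdm2b, the ubiquitin ligase gene Rnf34 had 1 to 5 counts in any library. The median level was 1.40 CPM per kilobase in genes with an overlap and 1.45 in the 27 without, which is a description over genes that share libraries. Fitted with all other genes that have no overlap, the 14 that passed the filter had 10 positive and 4 negative log2 fold changes and a median of 0.20, beside 0.014 over all genes without overlap. That fit was also scaled anew. Against the main fit Kmt2b, for example, rose from 0.11 to 0.18, Dot1l from 0.22 to 0.28 and Kdm1a from -0.069 to 0.0024. The part of the new scaling in the median was not tested.

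**Figure D3:**
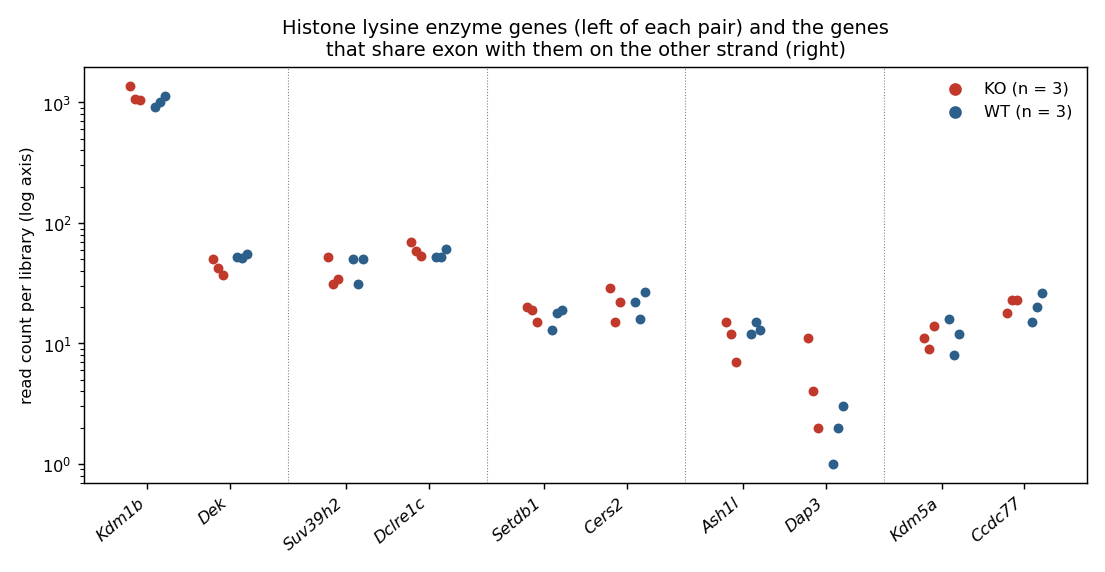
Read counts per library on a log axis for 5 genes of the set and, right of each, the gene that shares exon with it on the other strand; red points are KO and blue points WT (n = 3 each). Kdm1b lies at least 17.5 times above Dek in every library, Suv39h2 lies below Dclre1c in every library, and Ash1l lies above Dap3 in every library.

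Summed over writers and over erasers, the genotypes overlapped once Kdm1b was set aside. The 28 writers summed to 827, 666 and 652 CPM in KO, against 781, 695 and 744 CPM in WT, and the 12 erasers other than Kdm1b to 303, 274 and 234 CPM in KO, against 307, 255 and 265 CPM in WT. The ratio of writers to these erasers was 2.65 ± 0.192 in KO and 2.69 ± 0.135 in WT (SD, n = 3 each). With Kdm1b the erasers summed to 1949 ± 91.6 CPM in KO and 1773 ± 98.9 CPM in WT, and no KO library lay among the WT libraries, which is the position of Kdm1b itself. By target, H3K4 writers summed to 220 to 303 CPM in KO and 266 to 295 CPM in WT, H3K36 writers to 115 to 128 CPM in KO and 125 to 154 CPM in WT, H3K9 writers to 108 to 125 CPM in KO and 107 to 140 CPM in WT, and H3K27 writers to 74.8 to 98.6 CPM in KO and 62.0 to 83.1 CPM in WT. Each of these ranges overlapped between the genotypes.

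The KO libraries differed among themselves over the set. KO replicate 1, the deepest library, was the highest of the 6 for 9 of the 24 tested genes (37.5%), where it was the highest for 16.4% of all genes tested. WT replicate 1 was the highest for 7 of the 24 (29.2%), beside 17.6% of all genes. In KO replicate 1 18 of the 24 genes lay above their own mean over the libraries, with a median deviation of 0.16 on the log2 scale, while in KO replicate 3 the number was 6 and the median -0.21. In WT replicate 1 it was 15 of 24 with a median of 0.11, and the WT medians lay from -0.025 to 0.11. Over all tested genes the library medians were -0.0014 to 0.024. Kmt2a, Kmt2b, Kmt2d, Setd1a, Setd3, Dot1l, Kdm1b, Kdm2b and Kdm3a were the genes highest in KO replicate 1. Without that library 9 of the 24 genes that then passed the filter had a positive log2 fold change and 15 a negative one, with a median of -0.11, and without KO replicate 3 the median was 0.10.

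**Figure D4:**
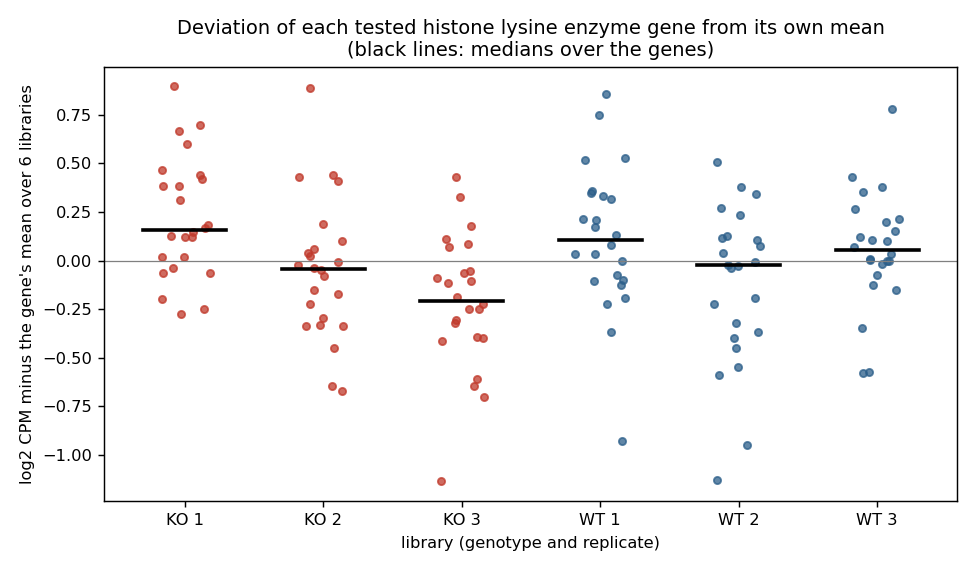
Log2 CPM of each tested gene minus its own mean over the 6 libraries (vertical axis), by library; red points are KO, blue points WT, and black lines are medians over the 24 genes. The KO libraries spread from a median of 0.16 in replicate 1 to -0.21 in replicate 3, while the WT medians lie between -0.025 and 0.11.

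Partners and relatives of these enzymes, taken from lists, gave no call either. Of 12 COMPASS partners 4 were tested, with Ncoa6, a coactivator of the Kmt2c and Kmt2d complexes, at a log2 fold change of -0.59 (SE 0.43) and Paxip1 at -0.38 (SE 0.38). Of 9 PRC2 partners 5 were tested, with Aebp2 at -0.41 (SE 0.30) and Mtf2 at 0.54 (SE 0.45). Among 8 H3K9 readers and corepressors 5 were tested, 2 with positive and 3 with negative values, the 3 being the HP1 proteins that bind methylated H3K9. Cbx3, HP1 gamma, had 14, 18 and 19 counts in KO, against 36, 26 and 25 counts in WT, without overlap, and a log2 fold change of -0.80 (SE 0.30, unadjusted p 0.0150, edgeR adjusted p 0.987). Cbx1, HP1 beta, had 22, 16 and 20 counts in KO, against 23, 22 and 24 in WT (-0.28, SE 0.27), also without overlap in CPM, and Cbx5, HP1 alpha, lay at -0.18 (SE 0.26). Of all genes tested, 5.85% were lower in KO without overlap.

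Of 8 LSD1 corepressor genes 1 was tested, Hdac2 at -0.28 (SE 0.36), and the 8 together summed to 32.9 to 43.0 CPM in KO, against 53.6 to 59.0 CPM in WT, without overlap. Singly only Rcor3, below the filter, did not overlap, with 2 to 4 counts in KO and 5 to 6 in WT. The share of all untested genes with a count that lay lower in KO without overlap was 4.17%. The sums of the other lists of partners and relatives overlapped. COMPASS partners summed to 744 to 844 CPM in KO and 704 to 940 CPM in WT. PRC2 partners summed to 211 to 220 CPM in KO and 215 to 246 CPM in WT. H3K9 readers and corepressors summed to 283 to 385 CPM in KO and 304 to 336 CPM in WT. Other lysine methyltransferases and demethylases summed to 851 to 944 CPM in KO and 792 to 894 CPM in WT. No share for such sums was made over all genes. Other lysine methyltransferases and demethylases had 23 symbols in the files and 8 tested, 4 with positive and 4 with negative values and a median of 0.010. Mina, a JmjC oxygenase, had 40, 28 and 26 counts in KO, against 24, 20 and 15 counts in WT, without overlap in CPM, and a log2 fold change of 0.62 (SE 0.27, unadjusted p 0.0359, edgeR adjusted p 0.987). Of all genes tested, 4.83% were higher in KO without overlap. Below the filter, Setd8 was higher in KO without overlap in CPM (5, 3 and 9 counts in KO, against 3, 2 and 0 in WT). Hr, also below it, was lower (6, 4 and 6 counts in KO, against 8, 7 and 13 in WT). Of all untested genes with a count, 7.66% did not overlap in either direction. Phf2 lay at -0.51 (SE 0.41). The Y-linked demethylase Kdm5d had 2 counts in KO replicate 3 and 3 counts in WT replicate 3, and 0 in the other libraries.

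The authors' deposited DESeq and edgeR results each listed a single gene of the 41, Setd6, at an unadjusted p under 0.05, where the share of all genes below that level was 1.86% for DESeq and 1.9% for edgeR. A count of 1 in 41 is near that share. For Setd6 the KO mean was 0.362 times the WT mean (p = 0.0201) in the authors' deposited table from DESeq. The authors' deposited table from edgeR, whose log2 values run WT minus KO, listed it at 1.45 (p = 0.0136). Kmt2c stood at 0.569 times (p = 0.143) in the authors' deposited table from DESeq and at 0.79 (p = 0.0800) in the authors' deposited table from edgeR, again WT minus KO.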

How the data were processed

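RNA of 3 KO and 3 WT samples was measured. Per the labels' protocols, TRIzol RNA (about 500 ng, average RIN 8.2) went into a TruSeq mRNA kit, and single-end 50-base reads were taken on an Illumina HiSeq. The tools named, per the submitters' processing notes, are TopHat, HTSeq 0.9.1, DESeq and edgeR, and the build is GRCm38 (mm10). For strand and annotation, the counting mode is not given in the sources used here. Deposited by the authors were whole-number counts per gene symbol with 5 rows that name no gene, left out here (reads in no gene were 98.8% of uniquely aligned reads). The authors' deposited DESeq table holds normalised mean signal, a linear ratio of KO to WT, and a p-value. In the edgeR one, also deposited by the authors, log2 values (WT minus KO) and log2 CPM stand beside a p-value. Both were used for description.

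Differences were tested in R 4.3.3 with edgeR 4.0.16 (quasi-likelihood F test, TMM factors 0.954 to 1.04, filterByExpr with a minimum count of 10) across 5320 genes, with Benjamini-Hochberg adjustment over all of them. Standard errors come from the F statistic, and CPM uses TMM-scaled gene totals. The limit at 0 counts was taken as 3 counts, equal to 3.92 to 4.64 CPM across libraries, and covers counting error only. The fit was tested on simulated data. Genes named in full are the 6 of lowest p and those tested without overlap of the groups, with the 2 of lowest p per partner list. Setd6, Cbx5, Kdm5d, Rcor3, Setd8 and Hr were named after their values were seen. The class of each gene, the partner lists and the markers were chosen with earlier results of these data known, as was the list of 41 genes. Positions and overlaps come from GENCODE M21 (GRCm38), in which 95.7% of symbols matched. Alternatives were DESeq2 1.42.0, the exact test, limma-voom (limma 3.58.1), other normalisations and filters, a replicate block, left-out libraries and genes without overlap; those of Setd6, of the sums and of the marker sums were chosen after seeing the data. Libraries differed pairwise by more than counting noise (chi-square per degree of freedom at least 2.03), and all 6 were kept.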

Additional observations from a re-analysis of the deposited data

How the results depend on the processing

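No gene of the set was called in any of 17 alternatives. Over all genes, 0 were called except 6 with no filter on low counts, 1 when KO replicate 3 and WT replicate 3 were dropped together, and between 0 and 1 with single libraries left out (1 without WT replicate 3). For these counts the cause was not tested. The median over the tested genes of the set was 0.20 among genes without opposite-strand exon overlap, where 14 were tested in a fit scaled anew, and -0.11 to 0.10 leaving out each library. With the replicate block 0 genes were called over all and in the set, and the median was 0.0094. Correlations between same-numbered libraries, as deviations from group means, were 0.143, 0.0795 and 0.122, each sample correlating best with its own number, but the labels name no pairing.

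For 11 of the 24 tested genes, Kmt2c, Setd7, Ezh1, Kdm3a and Kdm1b among them, the sign held in every alternative that gave a value. Several of them still moved by more than 1.5 times leaving out each library: Setd1b from 0.0050 to 0.43, Setd3 from -0.43 to -0.020, Setd1a from -0.43 to -0.054, Ash1l from -0.43 to -0.090, Suv39h2 from -0.38 to -0.086 and Nsd1 from -0.33 to -0.062. So did Kdm1b, from 0.093 to 0.20, and Kdm3a, from 0.26 to 0.70. The other 13, none called, changed sign in 29 values, 22 of them leaving out 1 library. Leaving out each library, the log2 fold change ranged from -0.37 to 0.35 for Kmt2a, -0.13 to 0.30 for Kmt2b, -0.31 to 0.56 for Kmt2d, -0.068 to 0.16 for Setdb1, -0.18 to 0.23 for Ash2l, -0.56 to 0.11 for Ehmt2, -0.019 to 0.56 for Smyd5, -0.16 to 0.42 for Dot1l, -0.16 to 0.020 for Kdm1a, -0.26 to 0.12 for Kdm2b, -0.28 to 0.11 for Kdm3b, -0.37 to 0.16 for Kdm5a and -0.35 to 0.43 for Jmjd1c. In other settings the turned values were -0.0019 for Kmt2a (limma-voom), -0.020 for Ash2l (library size of all uniquely aligned reads), 0.0024 for Kdm1a (genes without overlap), and for Kdm2b 0.0019 (RLE), 0.010 (no filter), 0.017 (DESeq2) and 0.10 (without both replicate 3 libraries). With 645994 to 764839 gene counts a library, 17 of the 41 genes could not be tested, and a 2-fold change lay within the interval for 8 of the 24 tested. How much of that is depth, reads in no gene or spread between libraries was not tested.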
